A study of Homo sapiens with 6 samples.

Results

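The genes described here are 10 transcription factors of 3 families that are known for their roles in chondrocytes: *SOX5*, *SOX6*, *SOX9*, and *SOX4*; *RUNX1*, *RUNX2*, and *RUNX3*; and *FOXO1*, *FOXO3*, and *FOXO4*. They were taken by gene symbol from the deposited gene counts, where each of the 10 matched 1 of 60623 genes. SOX proteins bind DNA through an HMG box. SOX9 is required for cartilage formation and, together with SOX5 and SOX6, drives the genes of the cartilage matrix. RUNX proteins bind DNA as dimers with CBFB, and RUNX2 is known as a driver of chondrocyte hypertrophy and bone formation. FOXO proteins are forkhead factors that are kept out of the nucleus when AKT phosphorylates them, and they are known for genes of autophagy and antioxidant defense in articular cartilage.

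Total RNA of TC28a2 cells, an immortalized human chondrocyte line bought from a supplier, was profiled by RNA-Seq. Cells received 2 μM mocetinostat, an inhibitor selective for class I histone deacetylases (HDACs), or the solvent DMSO alone for 24 hours, with 3 samples per condition. The comparison asks which genes mocetinostat regulates. All values are therefore of 1 dose, 1 time, and 1 line. Totals ranged from 4873426 to 11031132 counts under DMSO and from 1619344 to 5089542 with mocetinostat, so scarce transcripts had wider errors in the treated samples. Of the chondrocyte markers, *SOX9* was well measured, *COL2A1* had between 7 and 26 counts in each DMSO-treated sample, and *CNMD* had 0 in all 6 samples. The fit of edgeR tested 13966 genes, with a biological coefficient of variation of 9.30%. CPM below is the TMM-scaled count relative to library size, log2 fold changes are mocetinostat over DMSO, and "called" means an adjusted p under 0.05 with an absolute log2 fold change over 1.

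The promoter letters of 5 of the genes are shown because these are the genes called upregulated or downregulated below, and only stretches outside annotated exons are printed. They are RefSeq promoter sequence of GRCh38.p14, read 5′ to 3′ in the direction of the gene and ending at the last base before a start site, except that the *SOX5* and *RUNX2* stretches are the exon-free beginnings of a promoter, for *RUNX2* the distal one. Capitals mark, on either strand, a RUNX motif (TGTGGT), a FOXO motif (GTAAACA), a SOX motif (AACAAT), a GC box (GGGCGG), or a CCAAT box (CCAAT).
*SOX4*, chr6:21593501-21593750, plus strand: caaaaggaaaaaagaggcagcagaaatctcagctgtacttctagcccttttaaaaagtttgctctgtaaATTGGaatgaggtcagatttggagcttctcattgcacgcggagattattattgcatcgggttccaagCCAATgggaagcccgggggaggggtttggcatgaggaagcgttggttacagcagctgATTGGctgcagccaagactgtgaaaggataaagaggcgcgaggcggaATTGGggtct
*SOX5*, chr12:24562545-24562741, minus strand: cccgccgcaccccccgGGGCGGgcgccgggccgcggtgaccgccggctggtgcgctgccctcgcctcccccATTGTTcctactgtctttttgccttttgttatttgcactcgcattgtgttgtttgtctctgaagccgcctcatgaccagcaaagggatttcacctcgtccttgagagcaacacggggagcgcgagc
*RUNX2* distal, chr6:45328080-45328156, plus strand: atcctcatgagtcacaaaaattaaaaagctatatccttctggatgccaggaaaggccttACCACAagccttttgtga
*FOXO1*, chr13:40666642-40666891, minus strand: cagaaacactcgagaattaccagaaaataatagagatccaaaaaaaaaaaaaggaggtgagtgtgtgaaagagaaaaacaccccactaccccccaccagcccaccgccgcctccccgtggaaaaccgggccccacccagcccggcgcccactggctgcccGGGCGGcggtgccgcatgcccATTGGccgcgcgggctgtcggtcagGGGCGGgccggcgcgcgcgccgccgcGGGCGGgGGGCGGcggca
*FOXO4*, chrX:71095601-71095850, plus strand: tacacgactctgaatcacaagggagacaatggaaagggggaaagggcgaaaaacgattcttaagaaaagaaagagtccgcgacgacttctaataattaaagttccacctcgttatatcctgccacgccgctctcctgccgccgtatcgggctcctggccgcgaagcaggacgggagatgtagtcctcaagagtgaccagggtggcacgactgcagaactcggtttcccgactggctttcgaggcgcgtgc

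No motif was in the promoters of all 4 upregulated genes. *SOX4* held 4 CCAAT boxes and no GC box, *FOXO1* held 4 GC boxes and 1 CCAAT box, *SOX5* held 1 GC box and 1 SOX motif, and *FOXO4* held no match to any of the 5 motifs. The distal promoter of *RUNX2* held RUNX letters beginning 191 and 87 bases before the start site, the latter within an annotated exon and so not printed. It held 0 CpG dinucleotides in its 250 bases, while the proximal promoter of *RUNX2* (chr6:45422025-45422274) held 34 CpG dinucleotides and no RUNX letters. RUNX letters were in 5 of the 18 promoters listed for 9 of the 10 genes, against 11% of all 35116 promoters of the same length. No promoter was listed for *SOX9*. The 18 are not independent, since *SOX6* and *FOXO3* have several each, and some lie mostly in annotated exons. The FOXO motif was in 1 of the 18 (2.98% of all promoters), the SOX motif in 5 (8.98%), the GC box in 10 (42.6%), and the CCAAT box in 8 (32.0%). A match is only a run of letters and no measure of binding. The counts are per gene, so they do not say from which promoter a transcript started.

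Of the 10 genes, 9 passed the expression filter and were tested. By adjusted p alone, 6 of the 9 rose with mocetinostat (32.9% of all genes tested rose) and 1 fell (31.4% of all genes tested fell). *SOX5*, *SOX4*, *FOXO1*, and *FOXO4* were called upregulated, 4 of 9 against 20.2% of all genes, and *RUNX2* was called downregulated, 1 of 9 against 8.18%. A single fall among 9 genes is no larger a share than all genes gave by adjusted p alone. The CPM of the 2 conditions did not overlap in 6 genes that were higher (33.7% of all genes) and in 1 that was lower (32.8% of all genes). *SOX5* passed the filter only through its mocetinostat-treated samples. That route favors genes that are higher there, so its call is not independent of the filter. The median log2 fold change of all genes tested was -0.002. In a bulk measurement, a change in the share of cells that transcribe a gene and a change in RNA per cell cannot be told apart.

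**Figure D1:**
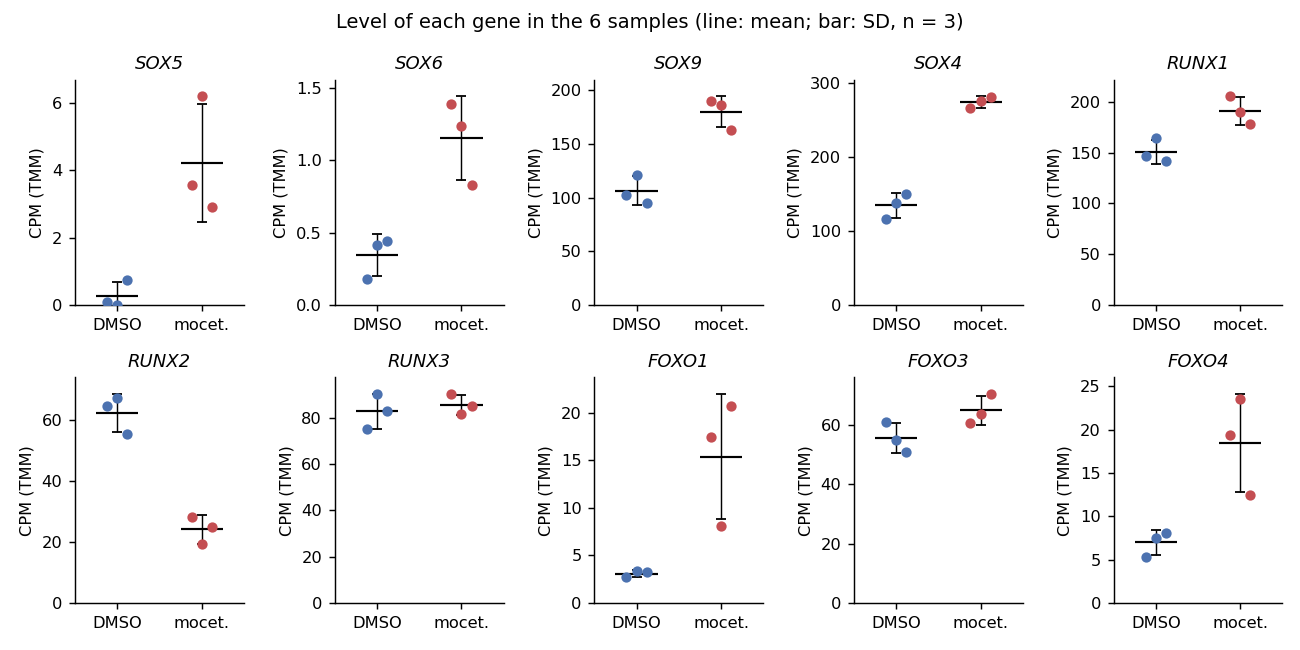
CPM of each of the 10 genes (y axis, TMM-scaled CPM, starting at 0, with a scale of its own for each gene) in the 3 DMSO-treated samples (blue) and the 3 mocetinostat-treated samples (red); lines are means and bars are SD. *RUNX2* lies lower with mocetinostat in all 3 samples, *SOX5*, *SOX6*, *SOX9*, *SOX4*, *RUNX1*, *FOXO1*, and *FOXO4* lie higher, and *RUNX3* and *FOXO3* overlap.

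Of the 4 SOX members, *SOX9* and *SOX4* were by far the more abundant. *SOX9* (ENSG00000125398, chr17:72121020-72126416), the master regulator of chondrocyte fate, had 102.1, 121.6, and 95.5 CPM with DMSO and 189.7, 186.5, and 163.3 CPM with mocetinostat. The lowest treated sample was above the highest DMSO-treated sample. The mean went from 106.4 ± 13.6 CPM to 179.8 ± 14.4 CPM (SD, n = 3 per condition), a log2 fold change of 0.77 (95% interval 0.57 to 0.96; edgeR, adjusted p = 2.51e-10). *SOX9* thus rose, but by less than the fold needed for a call, and its interval lay below a log2 fold change of 1.

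*SOX4* (ENSG00000124766, chr6:21593751-21598619), a SOXC factor of progenitor cells, had 116.7, 138.3, and 150.0 CPM with DMSO and 266.4, 275.8, and 281.8 CPM with mocetinostat. The treated samples were close together and all far above the DMSO-treated samples. The log2 fold change was 1.03 (SE 0.09; 95% interval 0.85 to 1.21; edgeR, adjusted p = 1.44e-16), a 2.04-fold rise. This lies next to the threshold for a call. Without DMSO replicate 1, the sample with the lowest *SOX4*, the log2 fold change was 0.91, and without mocetinostat replicate 3 it was 0.997, so neither fit called the gene. It was not called by DESeq2 (0.993) or with no filter (0.775) either, although it rose in all 4 of these fits. Annotated exons of *SOX4* overlapped exons of ENSG00000283480 on the opposite strand over 3.45% of their length, and that gene had at most 3 counts in any sample.

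*SOX5* and *SOX6*, the SOXD partners that bind beside SOX9, were near the limit of measurement. *SOX5* (ENSG00000134532, chr12:23529504-24562544) had 1, 0, and 5 counts under DMSO and 18, 10, and 7 counts with mocetinostat, although the treated libraries were smaller. The log2 fold change was 3.78 with a wide interval from 2.39 to 5.16 (edgeR, adjusted p = 2.30e-06). Its size depended on DMSO replicate 3, which held 5 of the 6 counts under DMSO: without that sample the log2 fold change was 5.50. *SOX6* (ENSG00000110693, chr11:15966449-16739591) had 2, 2, and 3 counts under DMSO and 7, 2, and 2 counts with mocetinostat and did not pass the filter. Summed over samples, its 7 counts under DMSO and 11 with mocetinostat give a ratio of 3.93 per total count, with an exact conditional interval from 1.39 to 11.96 that covers counting error only. Fitted over samples with no filter, *SOX6* did not pass the test (edgeR, adjusted p = 0.365), which does not show that a change was absent.

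The RUNX genes moved apart. *RUNX2* (ENSG00000124813, chr6:45328157-45664349), whose promoters are described above, had 64.6, 67.3, and 55.4 CPM with DMSO and 28.4, 19.2, and 24.9 CPM with mocetinostat. Each treated sample was below each DMSO-treated sample. The mean fell from 62.4 ± 6.22 CPM to 24.1 ± 4.61 CPM (SD, n = 3 per condition), which the fit put at 40.4% of the DMSO level (95% interval 33.0% to 49.5%; log2 fold change -1.31, SE 0.15; edgeR, adjusted p = 2.95e-12). The fall was also seen in raw counts of 2 libraries of similar size: DMSO replicate 2 (4873426 counts in all) held 323 and mocetinostat replicate 1 (5089542 counts) held 143.

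*RUNX1* (ENSG00000159216, chr21:34787801-36004667), which is known to act early in chondrocyte differentiation, had 146.4, 163.9, and 142.1 CPM with DMSO and 205.2, 190.3, and 177.8 CPM with mocetinostat. The conditions did not overlap, but the step was small. The log2 fold change was 0.35 (95% interval 0.17 to 0.53; edgeR, adjusted p = 0.000598), a 1.28-fold rise. With no filter on low counts, it was 0.10 and did not pass the test (edgeR, adjusted p = 0.490). *RUNX3* (ENSG00000020633, chr1:24899511-24965121), which is expressed in prehypertrophic cartilage and in lymphocytes, had 75.3, 90.2, and 83.1 CPM with DMSO and 90.2, 81.8, and 85.0 CPM with mocetinostat. These values overlapped. The log2 fold change was 0.07, and its interval, from -0.16 to 0.29, spans 0 (edgeR, adjusted p = 0.633). Scaled to *GAPDH*, it was 0.60 and passed the test (edgeR, adjusted p = 3.48e-05), with a shift of all genes by 0.53.

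Among the FOXO genes, the 2 with the lower levels rose. *FOXO1* (ENSG00000150907, chr13:40555667-40666641) had 2.71, 3.33, and 3.24 CPM with DMSO and 17.5, 8.06, and 20.7 CPM with mocetinostat. All treated samples were higher, and they differed more among themselves than the DMSO-treated samples did, mocetinostat replicate 2 being the lowest with 13 counts. The fit gave a 5.26-fold rise (95% interval 3.42 to 8.08; log2 fold change 2.39, SE 0.31; edgeR, adjusted p = 3.63e-10). Without that replicate the log2 fold change was 2.61. In the pair of libraries of similar size, DMSO replicate 2 held 16 counts and mocetinostat replicate 1 held 88. In GENCODE 44, exons of *FOXO1* were shared with ENSG00000288542 on the same strand over 22.7% of their length, a locus that was not analysed here as a gene of its own.

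*FOXO4* (ENSG00000184481, chrX:71095851-71103532) had 5.34, 7.50, and 8.11 CPM with DMSO and 19.4, 23.6, and 12.4 CPM with mocetinostat. The conditions were apart, again with more spread among the treated samples. The log2 fold change was 1.42 (95% interval 0.91 to 1.93; edgeR, adjusted p = 1.55e-06), or 2.67-fold. *FOXO3* (ENSG00000118689, chr6:108559835-108684774), the most abundant FOXO gene in these cells, had 60.9, 55, and 51.0 CPM with DMSO and 60.7, 63.8, and 70.5 CPM with mocetinostat. The lowest treated sample lay just under the highest DMSO-treated sample. The log2 fold change of 0.21 (95% interval -0.04 to 0.46) did not pass the test (edgeR, adjusted p = 0.136), but it passed under 2 of 16 alternatives, at 0.29 with a minimum of 10 counts in every sample and at 0.75 scaled to *GAPDH*.

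The value of *FOXO3* carries a further uncertainty. *FOXO3B*, a near-identical copy on chromosome 17, held 198, 92, and 92 counts under DMSO and 23, 11, and 27 counts with mocetinostat, and it was called downregulated (log2 fold change -1.27, SE 0.27; edgeR, adjusted p = 3.02e-05). Of the 7569 stretches of 100 bases in *FOXO3* transcripts, 1700 (22.5%) were also in *FOXO3B*. Reads of that length cannot be told apart there. The ratio of *FOXO3B* to *FOXO3* counts went from 0.303 ± 0.042 to 0.114 ± 0.042 (SD, n = 3 per condition). With both summed, the log2 fold change was -0.01 (SE 0.12; edgeR, adjusted p = 0.927). The other members shared no such stretch with another gene, except *SOX4* with 1.49% and *FOXO1* with 20.7%, in both cases with the loci named above.

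**Figure D2:**
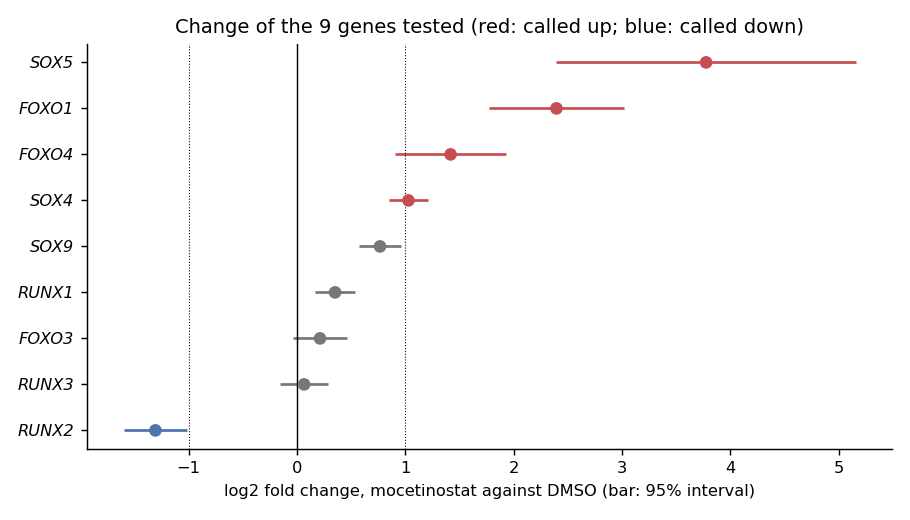
Log2 fold change of mocetinostat over DMSO (x axis) with 95% intervals for the 9 genes tested (y axis), red where called upregulated, blue where called downregulated, and gray otherwise; dotted lines mark a log2 fold change of 1 in either direction. Only *SOX5* and *FOXO1* among the upregulated genes, and *RUNX2* among the downregulated, have intervals wholly beyond the dotted lines.

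Levels can be compared between genes only per length. Per kilobase of exon, the order with DMSO was *SOX4* (27.7 ± 3.47 CPM per kb), *SOX9* (27.1 ± 3.45), *RUNX3* (16.8 ± 1.51), *RUNX1* (9.68 ± 0.742), *RUNX2* (7.62 ± 0.759), *FOXO3* (7.25 ± 0.649), *FOXO4* (1.84 ± 0.384), *FOXO1* (0.520 ± 0.0561), *SOX5* (0.0244 ± 0.0356), and *SOX6* (0.0173 ± 0.00717), each as mean ± SD of n = 3. *SOX4* and *SOX9*, *RUNX2* and *FOXO3*, and *SOX5* and *SOX6* did not differ from each other beyond the spread of the samples. With mocetinostat, *SOX4* (56.4 ± 1.59 CPM per kb) lay above *SOX9* (45.8 ± 3.67) in every sample. *RUNX2* (2.95 ± 0.563 CPM per kb) was then below *FOXO3* (8.47 ± 0.651) in every sample, and it overlapped *FOXO4* (4.87 ± 1.48) and *FOXO1* (2.59 ± 1.10). *SOX5* (0.374 ± 0.154 CPM per kb) lay above *SOX6* (0.0573 ± 0.0144). *RUNX3* (17.4 ± 0.862) and *RUNX1* (12.3 ± 0.881) kept their places after the 2 SOX genes. The lengths count every annotated exon, so that a gene with many rare exons appears lower than its main transcript is.

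Among the members of each family, the same scale gave the share of each. *RUNX2* went from 22.3% ± 1.79 of the RUNX total to 9.0% ± 1.29, *RUNX1* from 28.4% ± 0.510 to 37.6% ± 1.59, and *RUNX3* from 49.3% ± 2.29 to 53.4% ± 1.01 (SD, n = 3 per condition). These shares did not overlap between conditions. The RUNX total itself was 34.1 ± 2.53 CPM per kb with DMSO and 32.6 ± 2.05 with mocetinostat, so the totals overlapped within their spread while the make-up moved. *FOXO1* went from 5.42% ± 0.665 to 16.2% ± 6.90 of the sum of the 3 FOXO members, and *FOXO3* from 75.4% ± 5.04 to 53.2% ± 4.09. *FOXO4* went from 19.2% ± 4.39 to 30.6% ± 9.36, with overlap. That sum went from 9.61 ± 0.249 to 15.9 ± 0.0397 CPM per kb, without *FOXO6*, which stood at 0.298 ± 0.158 CPM per kb with DMSO and 4.92 ± 1.32 with mocetinostat. The sum of the 4 SOX members went from 54.8 ± 4.70 to 102.6 ± 2.58 CPM per kb, in which *SOX9* held 49.4% ± 4.65 and then 44.6% ± 2.6. It leaves out *SOX12* (16.3 ± 1.10 and then 11.5 ± 0.700 CPM per kb) and *SOX13* (3.28 ± 0.750 and then 8.12 ± 0.121), so these are shares of the members and not of all SOX transcripts.

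**Figure D3:**
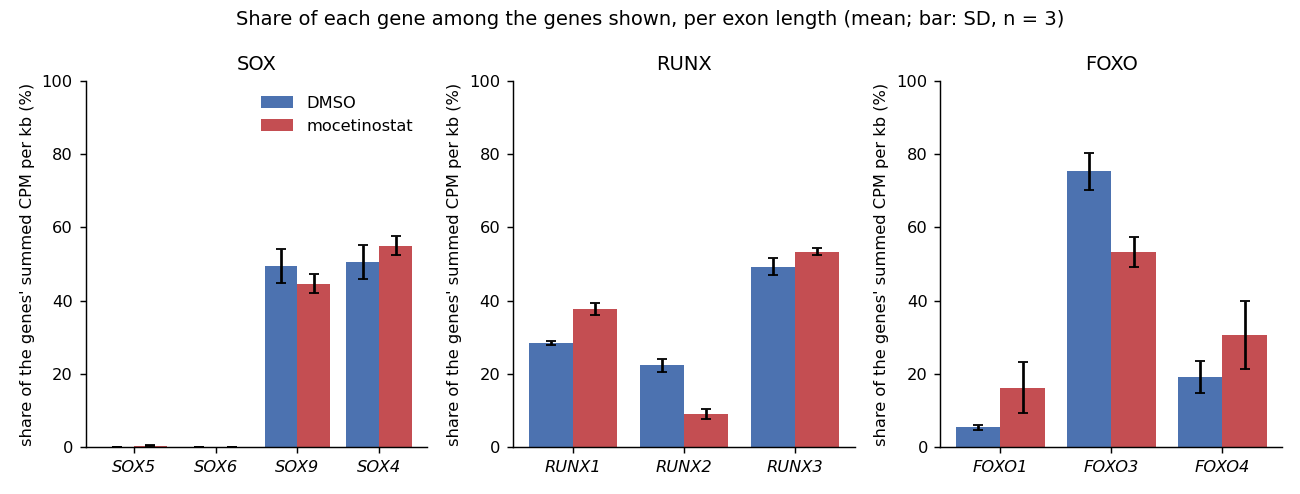
Share of each gene in the summed CPM per kb of the members of its family (y axis, percent, starting at 0), as mean and SD of 3 DMSO-treated (blue) and 3 mocetinostat-treated (red) samples. *RUNX2* and *FOXO3* hold a smaller share with mocetinostat, *RUNX1*, *RUNX3*, and *FOXO1* hold a larger one, *FOXO4* overlaps between conditions, and *SOX5* and *SOX6* stay under 1% of the 4 SOX members.

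Ratios of raw counts within a sample do not depend on how libraries are scaled. The ratio of *RUNX2* to *RUNX1* was 0.441, 0.410, and 0.390 with DMSO and 0.138, 0.101, and 0.140 with mocetinostat. Every treated sample was lower, by 1.73 on the log2 scale on average (log2 difference -1.73). The ratio of *FOXO1* to *FOXO3* was 0.0446, 0.0606, and 0.0636 with DMSO and 0.288, 0.126, and 0.294 with mocetinostat, higher in every treated sample, with a log2 difference of 1.99. For both, the exact two-sided permutation test gave p = 0.1, the smallest p that 3 against 3 samples allow (0.150 adjusted over the 3 ratios). The ratio of *SOX9* to *SOX4* was 0.875, 0.880, and 0.637 with DMSO and 0.712, 0.676, and 0.579 with mocetinostat. These overlapped, with a log2 difference of -0.27 (exact permutation p = 0.300, adjusted 0.300).

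The total count of a sample moved with the treatment. When all libraries were thinned to 1619344 counts, the log2 fold change was -1.39 for *RUNX2*, 2.47 for *FOXO1*, 1.54 for *FOXO4*, and 1.13 for *SOX4*, each still called. Scaling to *GAPDH*, which went from between 2953 and 3132 CPM to between 2034 and 2187 CPM, left *RUNX2* lower (-0.77; edgeR, adjusted p = 2.90e-05), but it was then no longer called, and *SOX9* reached 1.30. Tested against a log2 fold change of 1 rather than against no change (glmTreat), *SOX5*, *FOXO1*, and *RUNX2* passed, while *SOX4* and *FOXO4* did not (edgeR, adjusted p = 0.637 and 0.0769).

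**Figure D4:**
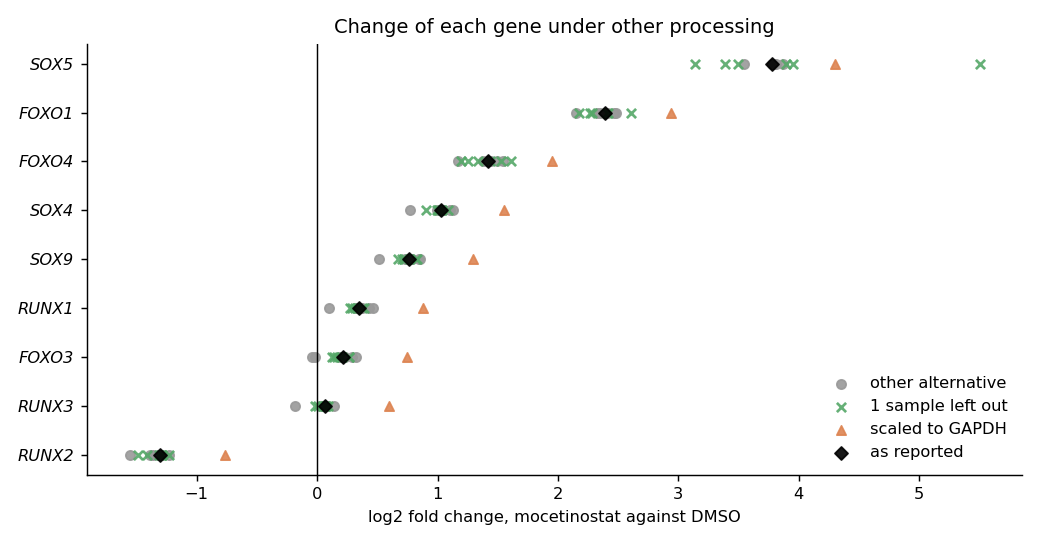
Log2 fold change of each of the 9 genes tested (y axis) under every way of processing that was tried (x axis): as reported (diamonds), with 1 sample left out (crosses), scaled to *GAPDH* (triangles), and under the other alternatives (circles). *RUNX2* lies below 0 throughout, *SOX5*, *FOXO1*, *FOXO4*, *SOX4*, *SOX9*, and *RUNX1* lie above 0, and *FOXO3* and *RUNX3* lie on both sides.

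The gene tested whose pattern over the 6 samples was most like each member's was sought by the root mean square difference of centered log2(CPM + 1) among 13965 genes. It was *ARID2* for *RUNX2* (difference 0.049), *KRT8* for *SOX4* (0.018), *MAP1LC3A* for *SOX9* (0.056), *TBL1X* for *RUNX1* (0.036), and *MDM1* for *FOXO3* (0.035). For *RUNX3* it was AC093323.1 (0.033), for *FOXO1* AC012435.2 (0.087), for *FOXO4* MAP3K2-DT (0.068), and for *SOX5* *FZD8* (0.147). *ARID2*, a subunit of a chromatin remodeling complex, fell with *RUNX2* from 80.5 to 30.7 CPM, and *KRT8*, a keratin, went with *SOX4* from 565.4 to 1139 CPM. With 2 conditions, such likeness mostly reflects the size of the change on this scale. For scarce genes the added 1 CPM shrinks the change, so fitted log2 fold changes could differ between a member and its match. They were 3.78 for *SOX5* and 2.17 for *FZD8*, and 2.39 for *FOXO1* and 3.85 for AC012435.2.

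The genes that work with or under the 10 factors were described by 7 lists with 156 genes in all, of which 112 were tested. Of these, 59 rose and 30 fell, and 38 (33.9%) were called upregulated and 8 (7.14%) downregulated, beside the 20.2% and 8.18% of all genes given above. The shares that rose (52.7%) and fell (26.8%) stand beside 32.9% and 31.4% of all genes, and the median log2 fold change was 0.39. Of the 112, 20 passed the filter only through the mocetinostat-treated samples, a route that favors genes that are higher there. Of these 20, 19 rose, beside 1410 of 1559 such genes among all genes tested. The counts and medians of the lists are descriptions that include such genes.

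Of the other SOX genes, 5 of 15 were tested, with a median of 1.34. Among these 5, 3 rose (60%, against 32.9% of all genes) and 1 fell (20%, against 31.4%). Of the 3 that rose, *SOX8* and *SOX17* passed the filter only through the treated samples. *SOX8*, a SOXE relative of *SOX9*, had 4, 0, and 1 counts under DMSO and 42, 12, and 19 with mocetinostat (log2 fold change 5.06). *SOX13*, a SOXD relative of *SOX5* and *SOX6*, rose by 1.34 on the log2 scale, and *SOX12*, a SOXC relative of *SOX4*, fell (-0.51; edgeR, adjusted p = 0.000242).

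Of 17 RUNX partners and corepressors tested (18 listed), 9 rose (52.9%, against 32.9% of all genes) and 5 fell (29.4%, near the 31.4% of all genes). The median was 0.25, and 2 of the 9 that rose, *RUNX1T1* among them, passed the filter only through the treated samples. *CBFB*, the shared partner of the RUNX proteins, went from 125.1 to 70.2 CPM (log2 fold change -0.83; edgeR, adjusted p = 6.75e-10). *RUNX1T1*, a corepressor, had 1 count in each DMSO-treated sample and 15, 10, and 5 counts with mocetinostat, a ratio of 25.02 per total count with an exact conditional interval from 7.78 to 128.1 for counting error. *YAP1* fell (-1.02), while its relative *WWTR1*, which encodes TAZ, rose by 0.25 on the log2 scale.

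Of 28 FOXO regulators tested (30 listed), 14 rose (50%, against 32.9% of all genes) and 10 fell (35.7%, near the 31.4% of all genes). The median was 0.19, and 2 of the 14 that rose, *FOXO6* among them, passed the filter only through the treated samples. *AKT2*, a kinase that phosphorylates FOXO proteins, fell (-1.05), and the 14-3-3 genes *YWHAE* (-0.48) and *YWHAG* (0.40), whose proteins hold FOXO in the cytoplasm, moved in opposite directions. *FOXO6*, a family member kept in this list, had 7, 2, and 8 counts under DMSO and 45, 25, and 30 with mocetinostat (log2 fold change 3.93). Of 27 FOXO target genes tested (32 listed), 15 rose (55.6%, against 32.9% of all genes) and 6 fell (22.2%, against 31.4%), with a median of 0.53. Of these, 10 were called upregulated (37.0%, against 20.2%) and 0 downregulated (against 8.18%), and 3 of the 10, *SESN3* among them, passed the filter only through the treated samples. *SESN3*, a stress response gene, had 3, 6, and 0 counts under DMSO and 178, 75, and 80 with mocetinostat. *CDKN1A*, a cell cycle inhibitor (2.86), and *CITED2* (2.30) also rose, while *PIK3CA*, a catalytic subunit of PI3 kinase that is in both lists, fell (-0.81). *IRS2* and *INSR* are in both lists as well.

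Of 15 SOX9 partners and modifiers tested (18 listed), 3 rose (20.0%, against 32.9% of all genes) and 6 fell (40.0%, against 31.4%). Their median of -0.12 was the only one of the 7 lists below 0. *PPARGC1A*, a coactivator, rose by 5.05 on the log2 scale, and *PRKACA* by 0.49. Of the 3 that rose, *PPARGC1A* passed the filter only through the treated samples. *PHF2*, a histone demethylase (-1.87), and *SMAD3* (-1.07) fell. Also called downregulated were the acetyltransferases *CREBBP* (-1.40) and *EP300* (-1.0) and the Mediator subunit *MED12* (-1.27), 3 genes named after their values were seen. Of 13 cartilage matrix targets of SOX9, SOX5, and SOX6 tested (25 listed), 10 rose (76.9%, against 32.9% of all genes) and 1 fell (7.69%, against 31.4%). The median was 1.64, and the 12 others were too low to test. Of the 13, 6 (*COL2A1*, *COL9A2*, *COMP*, *MATN3*, *CYTL1*, and *XYLT1*) passed the filter only through the treated samples, and 5 of these are among the 10 that rose. *XYLT1*, which starts the sugar chains of proteoglycans, rose by 4.21 on the log2 scale and *CHST11*, which sulfates them, by 1.64, while *COL27A1* fell (-0.96).

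Of 10 RUNX2 targets of hypertrophy and bone tested (21 listed), 7 rose (70%, against 32.9% of all genes) and 2 fell (20%, against 31.4%). The median was 1.07, and 4 of the 7 passed the filter only through the treated samples. *TNFRSF11B*, the decoy receptor for RANKL, fell from 92, 36, and 37 counts to 4, 1, and 2, and it passed the filter only through the DMSO-treated samples. *DLX5*, a bone transcription factor, had 0 counts in each DMSO-treated sample and 13, 5, and 5 with mocetinostat, at least 5.79-fold higher over a limit of 3 counts per library. *COL1A1* (-0.21) and *SPARC* (0.20), the most abundant of the list, moved little. *MMP13*, a collagenase named after its values were seen, rose by 4.39 on the log2 scale, and *COL10A1*, the classic marker of hypertrophy, had at most 3 counts in any sample and was not tested. The list therefore held genes that moved with and against *RUNX2*. Whether RUNX2 acts on each of them in these cells, *DLX5* included, was not tested.

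**Figure D5:**
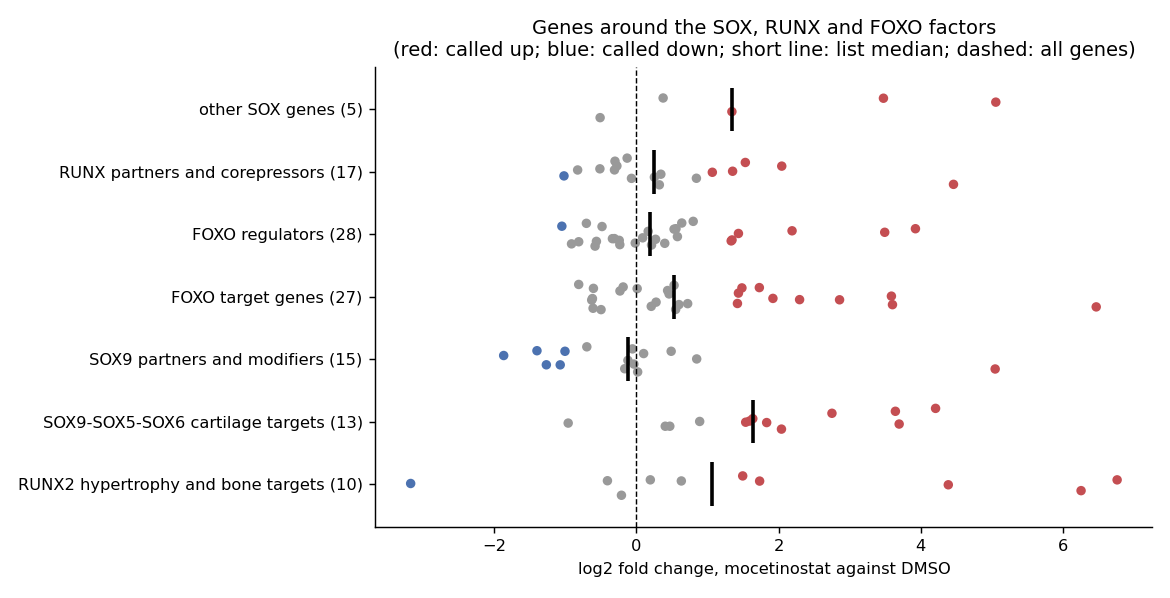
Log2 fold change of mocetinostat over DMSO (x axis) of each tested gene of the 7 lists (y axis, number tested in parentheses), red where called upregulated, blue where called downregulated, and gray otherwise; short lines are list medians and the dashed line is the median of all genes. The cartilage targets (median 1.64) lie mostly to the right. The SOX9 partners hold 5 of the 8 genes called downregulated, which is 33.3% of the partners tested, against 8.18% of all genes. The number of partners called depended on the processing, with 1 under *GAPDH* scaling and 3 with glmTreat.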

How the data were processed

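RNA-Seq of TC28a2 cells given DMSO or 2 μM mocetinostat was analyzed after 24 hours, with 3 samples per condition grouped by their labels. The authors deposited raw counts per gene, without normalization. Per the study's methods, single reads of 100 bases were trimmed, freed of ribosomal reads, aligned to GRCh38 with STAR 2.6.1d, and counted with featureCounts 1.6.4. Use of strand and treatment of reads with several matches are not given in the sources used here. Columns were assigned to samples by their names.

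edgeR 4.0.16 (limma 3.58.1, R 4.3.3) computed TMM factors, kept 13966 genes (filterByExpr, minimum count 10), and ran its quasi-likelihood test of treatment with Benjamini-Hochberg adjustment over all of them. As in the study, a call required an adjusted p below 0.05 and a log2 fold change beyond 1 in either direction. A tested list gene at 3 or fewer counts in every DMSO-treated sample was given a lower limit. It is the mean CPM with mocetinostat over the CPM of 3 counts per library. This limit has no interval and does not cover counting error in the treated samples. For a gene with few counts, the ratio of summed counts was given with an exact interval. Such intervals cover counting error only, since reads carry no molecular identifiers. The p-values compare the 2 conditions against the spread between these samples, which are of 1 line, 1 dose, and 1 time. Lengths and positions are from GENCODE 44, to which 99.5% of the identifiers matched. Promoters are RefSeq's, the 250 bases before each start. Python 3.11.15, pandas 2.3.3, and matplotlib 3.10.9 were used for summaries. The fits were tested on simulated counts.

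The alternatives were DESeq2 1.42.0, glmTreat, RLE factors, unscaled library sizes, *GAPDH* scaling, no filter on low counts, a filter that asks for 10 counts per sample, thinning, a replicate block, and leaving out each sample. Summing *FOXO3* with *FOXO3B* was added after seeing the data. Named are the 10 genes, the highest, the lowest, and the 2 most abundant per kilobase of each list, loci beside or nearly identical to the 10, and the gene nearest in pattern. The genes and lists were chosen with earlier results of these data known. Each sample counted as a replicate, since the study describes the 3 samples of a condition as coming from separate, independent experiments. Within conditions, the chi-square statistic per degree of freedom between samples was 1.96 to 7.19, more than sampling noise. That alone does not show that samples are independent.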

Additional observations from a re-analysis of the deposited data

How the results depend on the processing

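Over all the alternatives, *SOX5*, *SOX9*, *SOX4*, *RUNX1*, *FOXO1*, and *FOXO4* stayed higher and *RUNX2* lower with mocetinostat wherever they could be fitted. Members called upregulated numbered 4, against 2 with glmTreat, 5 with *GAPDH* scaling (*SOX9* added), 3 with DESeq2 or no filter (*SOX4* lost), 3 after thinning or with at least 10 counts per sample (*SOX5* not tested), and 3 to 4 with 1 sample left out. *RUNX2* was the 1 member called downregulated, and 0 were with *GAPDH* scaling, which moved the median of all genes by 0.53 and raised the share of calls that were upregulated from 71.2% to 94.0%. No filter moved the median by -0.25 and that share to 60.2%, and glmTreat gave 81.7%. All genes called upregulated numbered 2827, against 4425 with *GAPDH* scaling and 1620 under a minimum of 10 counts in every sample. Those called downregulated numbered 1142, against 284 with *GAPDH* scaling, 2120 with no filter, 704 under that minimum, and 465 with glmTreat. In the 7 lists, 38 were called upregulated, against 52 with *GAPDH* scaling. They were 21 if every sample had to hold 10 counts, a setting that tests fewer genes. The 8 called downregulated became 2 with *GAPDH* scaling, 3 with at least 10 counts in every sample, 4 with glmTreat, and 5 after thinning. With no filter they became 12. *RUNX3* turned to -0.19 with no filter and ranged from -0.02 (without DMSO replicate 1) to 0.091 with 1 sample left out. *FOXO3* turned to -0.041 with no filter and to -0.014 summed with *FOXO3B*. Apart from the scaling and the number of genes, the cause of these moves was not tested. *SOX5* could not be fitted after thinning or with at least 10 counts in every sample, and *SOX6* in most settings.

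With the replicate number as a replicate block, 4 members were called upregulated and 1 downregulated, and *FOXO1* had a log2 fold change of 2.35 and *RUNX2* of -1.32. Samples sharing a number did not visibly deviate together (correlations 0.013, 0.017, and -0.022, against -0.040 to 0.034 between different numbers). With 3 samples per condition and counting noise in the deviations, this cannot exclude that the numbers pair the samples. The block changed no call among the members. Depth limits *SOX5*, *SOX6*, and the untested genes of the lists, since the smallest library held 1619344 counts.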

Other observations

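Genes beside the 10 loci did not all move with them. *CASC15*, a long noncoding RNA gene near *SOX4*, had 20, 5, and 5 counts under DMSO and 41, 11, and 26 with mocetinostat, and it was called upregulated after passing the filter only through the treated samples (log2 fold change 2.73, SE 0.44; edgeR, adjusted p = 1.14e-07). *SUPT3H*, whose transcripts begin close to *RUNX2*, had a log2 fold change of -0.53 that did not pass the test (SE 0.30; edgeR, adjusted p = 0.116). *SOX9-AS1* had at most 14 counts in any sample and a log2 fold change of 1.12 that did not pass either (edgeR, adjusted p = 0.117).

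The summed CPM of 5 epithelial markers went from between 0.208 and 1.33 to between 24.5 and 37.8, that of 5 neuronal markers from between 9.58 and 15.6 to between 33.6 and 56.4, and that of 6 blood cell markers from between 2.36 and 3.96 to between 10.5 and 15.5, with *CD3E* and *HBB* at 0 in every sample. That of 6 osteoblast markers, for which *RUNX2* is a known driver, went from between 0.417 and 1.45 to between 4.56 and 8.68, with no marker high enough to test. That of 6 fibroblast markers went from between 4502 and 5451 to between 4040 and 4406, and most of it was *COL1A1*. Of 5 fibroblast markers tested, 3 rose (60%, against 32.9% of all genes) and 2 fell (40%, against 31.4%). Their median log2 fold change was 1.73, and the 3 that rose passed the filter only through the treated samples. The summed CPM of 12 chondrocyte markers, *SOX9* among them, went from between 125.9 and 147.4 to between 266.9 and 308.3. Most of it was *SOX9*, itself a member, which went from between 95.5 and 121.6 CPM to between 163.3 and 189.7 CPM. The part of these marker genes in the changes of the SOX, RUNX, and FOXO genes was not tested.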
